A study of Arabidopsis thaliana with 44 samples.

Results

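The genes described here are the 47 late embryogenesis abundant (LEA) genes of Arabidopsis thaliana taken by locus from a fixed list, and all 47 were found among the 27827 probe sets of the deposited table. The list left out COR47, COR15A and COR15B, and no measured value entered the choice. Seed came from NIL DOG6, NIL DOG3 and NIL DOG1, near isogenic lines named for DELAY OF GERMINATION loci that affect dormancy. A near isogenic line shares most of its genome with its parent and carries a chromosome segment from another accession, so a difference between lines can also sit in the probes' targets. Mother plants grew at 15C, on low nitrate (N0), at 20C, in low light (LL) or in standard light (SL). For 15C and for N0 the control is 20C, and for LL it is SL. Lines and conditions made 15 groups of freshly harvested dry seed with 3 arrays a group, or 2 for NIL DOG3 under N0. Each array is a biological replicate that pools 4 plants.

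LEA proteins accumulate while the embryo dries at the end of seed maturation. Most are hydrophilic and have little fixed structure in solution, and they are known for protecting enzymes and membranes when water is lost. Abscisic acid and the transcription factors ABI3, FUS3, LEC1 and ABI5 switch on many of them in the embryo, and some also respond to cold or drought in leaves. The 47 genes fall into 9 subfamilies named for conserved protein segments, with 9 dehydrins, 16 LEA_4 genes, 2 LEA_5 genes, 3 LEA_1 genes, 6 seed maturation protein (SMP) genes, 3 LEA_2 genes, 4 LEA_3 genes, 2 PvLEA18 genes and 2 AtM genes.

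All values are log2 array signals. Signals of different probe sets depend on the probes and give no order of RNA amounts between genes. Array medians lay between 4.22 and 4.39, and Pearson correlations between arrays of the same group were 0.987 to 0.994. Differences are means of the within-line differences with their standard error (SE) after ±. A member was called at an adjusted p (limma, Benjamini-Hochberg over all 27827 probe sets) under 0.05. Of the embryo storage protein genes fixed as markers of dry seed, 9 of 9 had signals above the median of all probe sets in every condition. Seed holds embryo, endosperm and seed coat, and in such bulk samples fewer cells of a type and less RNA per cell cannot be told apart.

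Most LEA genes were among the brightest probe sets of dry seed. The mean signal over the 44 arrays lay above the 95th percentile of all probe sets (a log2 signal of 9.06) for 29 members, between the median (4.29) and that percentile for 10, and below the median for 8. M17, an AtM gene first described as a late seed transcript, had a mean of 12.81, the highest of all probe sets. AT3G15670 of the LEA_4 subfamily (12.44) and RAB18, a dehydrin induced by abscisic acid (12.15), were also near the top. Dim members included AT3G53770 of LEA_3 (2.21) and the LEA_4 genes AT2G03850 (2.32), AT4G13230 (3.07) and AT2G03740 (3.07). The dehydrins ERD10 (4.39) and ERD14 (3.76), known as chaperones induced early in dehydration, sat near the median of the array.

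Across the study, 19 of the 47 members were called in at least 1 of the comparisons 15C against 20C, N0 against 20C and LL against SL, against a background of 31.4% of all probe sets. The called members were unevenly spread over signal. Of the 29 members above the 95th percentile 9 were called, against 52.9% of all probe sets above it. Most of those members lay near the top of that class, so it was not matched to them in signal. Of the 10 members of middle signal 7 were called, against 51.8%. Of the 8 dim members 3 were called, against 10.9%. The distance from the lowest to the highest of the 15 group means had a median of 0.236 for the bright members and 0.355 for all probe sets above the 95th percentile. For members of middle signal it was 1.04, against 0.551 for all probe sets in that range. The highest value on any array was 12.95, and whether bright signals near it understate RNA differences was not tested. The plot of spread against signal shows both ends of the family. HIRD11, a small histidine-rich dehydrin that binds metal ions, spanned 2.04, and DI21, a LEA_3 gene named for its induction by drought, spanned 1.82. AT3G15670 spanned 0.13.

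**Figure D1:**
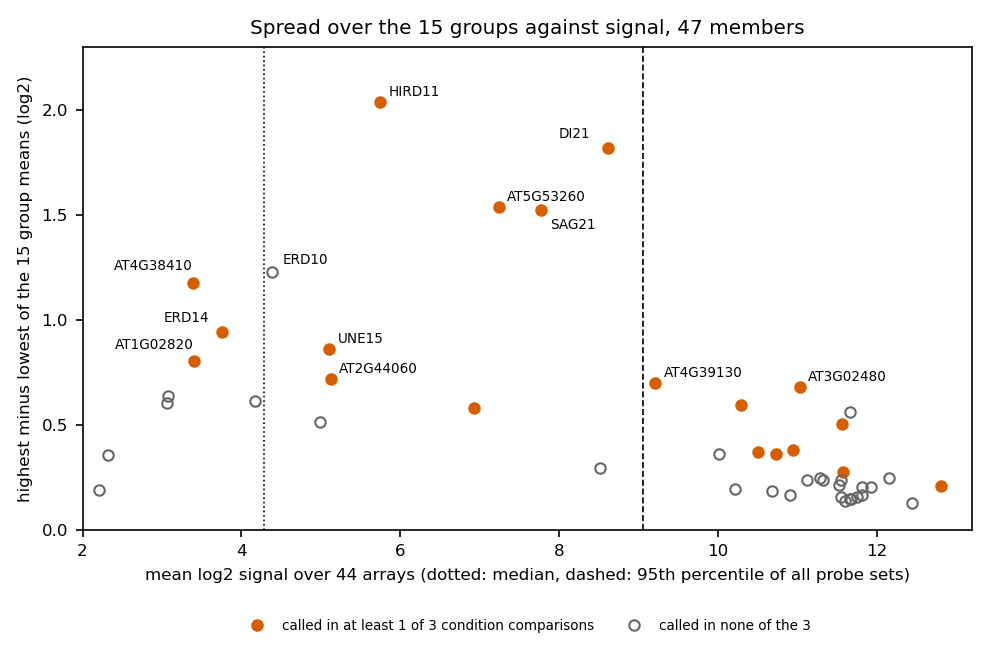
Each point is 1 of the 47 LEA genes, with its mean log2 signal over 44 arrays on the x axis and the highest minus the lowest of its 15 group means (log2) on the y axis. Filled points were called in at least 1 of the 3 condition comparisons. The 4 widest spans (HIRD11, DI21, AT5G53260 and SAG21) all lie left of the dashed 95th percentile of all probe sets, and the bright members to its right span 0.70 or less.

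Seed grown at 15C had 10 LEA genes higher and 5 lower than seed grown at 20C, out of 47. The background was 12.5% of all probe sets called higher and 12.8% called lower. It was not matched to the members in signal, since 8 of the 47 lay below the median of all probe sets. Dim probe sets were called less often in at least 1 condition comparison (10.9% below the median, 51.8% of middle signal). The median difference was 0.04 over the 47 members and 0.00 over all probe sets. The largest fall was deeper than the largest rise. The SMP gene AT5G53260 was 2.04-fold lower, DI21 was 1.68-fold lower, and the largest rise, that of AT1G02820, was 0.50 on the log2 scale.

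Of the 9 dehydrins, 2 rose, 1 fell and 6 were not called. AT4G39130, a dehydrin with no gene name in the table used, had signals of 9.35 to 9.64 (median 9.47) on the 9 arrays at 15C and 8.92 to 9.26 (median 9.04) on the 9 at 20C. No 15C array reached down to the 20C arrays, and the difference was 0.44 ± 0.06, adjusted p = 1.25e-07. ERD14 had signals of 3.67 to 4.20 (median 4.03) at 15C and 3.09 to 3.80 (median 3.56) at 20C (0.44 ± 0.13, adjusted p = 0.0127). The groups overlapped, and the ERD14 call was lost when the 15C arrays of replicate number 2 were left out (adjusted p = 0.111). AT4G38410, a dim dehydrin, had signals of 2.75 to 3.17 (median 3.09) at 15C and 3.02 to 4.01 (median 3.57) at 20C, and differed by -0.52 ± 0.11 (adjusted p = 0.000298). The bright dehydrins RAB18 (0.06 ± 0.06), LTI30 (0.08 ± 0.05) and XERO1 (-0.02 ± 0.04) were not called, nor was HIRD11 (0.02 ± 0.14, adjusted p = 0.95).

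Of the 16 LEA_4 genes, 3 rose and 13 were not called. AT3G02480 had signals of 10.97 to 11.43 (median 11.24) at 15C and 10.71 to 11.20 (median 10.91) at 20C (0.29 ± 0.06, adjusted p = 0.000171). AT2G18340, with 11.01 to 11.18 (median 11.06) at 15C and 10.75 to 10.98 (median 10.90) at 20C, was higher on every 15C array than on any 20C array (0.19 ± 0.05, adjusted p = 0.00194). AT5G44310 rose by 0.25 ± 0.07 (adjusted p = 0.00392). Neither LEA_5 gene was called, with -0.04 ± 0.05 for EM1 and -0.05 ± 0.08 for EM6, small hydrophilic seed proteins whose genes ABI5 binds. None of the 3 LEA_1 genes was called. LEA4-1 had the largest LEA_1 difference (0.10 ± 0.05, adjusted p = 0.174), and it was called without replicate 1 of NIL DOG3 at 20C (0.15, adjusted p = 0.0224).

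Of the 6 SMP genes, 2 rose and 1 fell. AT5G53260 had signals of 6.10 to 7.19 (median 6.62) at 15C and 7.31 to 7.99 (median 7.70) at 20C. Every 15C array lay below every 20C array, and the difference of -1.03 ± 0.09 (adjusted p = 8.52e-11) was the largest of any member in this comparison. RAB28, an abscisic acid responsive SMP gene, had signals of 10.41 to 10.60 (median 10.55) at 15C and 10.08 to 10.35 (median 10.20) at 20C (0.33 ± 0.05, adjusted p = 2.23e-06). AT3G22490 had signals of 11.62 to 11.73 (median 11.69) at 15C and 11.47 to 11.60 (median 11.51) at 20C (0.16 ± 0.04, adjusted p = 0.00297). Neither gene overlapped between the groups. In all, 4 members lay wholly higher at 15C and 2 wholly lower, against 2.94% and 2.43% of all probe sets.

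The LEA_3 subfamily held 1 rise and 2 falls among 4 genes. DI21 had signals of 7.63 to 8.28 (median 8.19) at 15C and 8.46 to 9.16 (median 8.79) at 20C, with no overlap (-0.75 ± 0.07, adjusted p = 7.31e-10). SAG21, a mitochondrial protein gene of senescence and oxidative stress, had signals of 6.96 to 7.75 (median 7.21) at 15C and 7.00 to 8.37 (median 7.89) at 20C. The SAG21 difference of -0.57 ± 0.19 (adjusted p = 0.0264) was lost in 6 of 18 fits that left out 1 array. These arrays were NIL DOG1 replicate 2, NIL DOG3 replicate 2 and NIL DOG6 replicates 2 and 3 at 15C, and NIL DOG3 replicate 1 and NIL DOG6 replicate 2 at 20C, and the adjusted p then reached 0.0884. It was also lost without all arrays of replicate number 2 or 3 at 15C or of number 1 or 2 at 20C (-0.41, adjusted p = 0.174 without number 1 at 20C), and with the pollen index described under low light as a covariate (-0.28, adjusted p = 0.211). AT1G02820 rose by 0.50 ± 0.14 (adjusted p = 0.00476), at a dim signal of 3.73 at 15C and 3.23 at 20C on average. In LEA_2, whose proteins are folded and less hydrophilic than other LEA proteins, AT2G46140 rose by 0.27 ± 0.08 (adjusted p = 0.0108) and AT2G44060 had -0.31 ± 0.10 (adjusted p = 0.0178). The AT2G44060 call was lost without replicate 1 of NIL DOG3 or replicate 3 of NIL DOG6 at 15C, or replicate 2 of NIL DOG3 at 20C (adjusted p up to 0.0586), and without the 15C arrays of replicate number 1 or 3 or the 20C arrays of number 2 (up to 0.17). The AT2G46140 call was lost without the 15C arrays of replicate number 1 or the 20C arrays of replicate number 2 (adjusted p up to 0.0965). Of the PvLEA18 genes, related to a bean LEA protein, AT2G23120 rose by 0.22 ± 0.04 (adjusted p = 0.000127), and neither AtM gene was called (M10, 0.04 ± 0.05).

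The 15 called members differed in the same direction in each of the 3 lines. A call on the mean of the 3 lines favours a shared direction, so this is not separate evidence. Of all 47 members, 34 had 1 direction in the 3 lines, against 51.0% of all probe sets. Within lines the same fit called 4 members in NIL DOG6 (11.7% of all probe sets), 8 in NIL DOG3 (9.19%) and 6 in NIL DOG1 (9.73%). AT4G39130, AT5G53260 and DI21 were called in every line. The AT4G39130 call in NIL DOG6 (adjusted p = 0.0105) was lost with only the compared arrays in the fit. The count in NIL DOG3 was 5 without replicate 1 or 3 at 15C or replicate 2 or 3 at 20C. For AT5G53260, NIL DOG6 had 7.19, 6.93 and 6.84 at 15C and 7.99, 7.91 and 7.91 at 20C, NIL DOG3 had 6.10, 6.62 and 6.62 at 15C and 7.49, 7.81 and 7.70 at 20C, and NIL DOG1 had 6.37, 6.16 and 6.66 at 15C and 7.34, 7.31 and 7.31 at 20C. The 15C arrays were the lower ones in each line, and NIL DOG6 had the highest group mean at both temperatures.

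**Figure D2:**
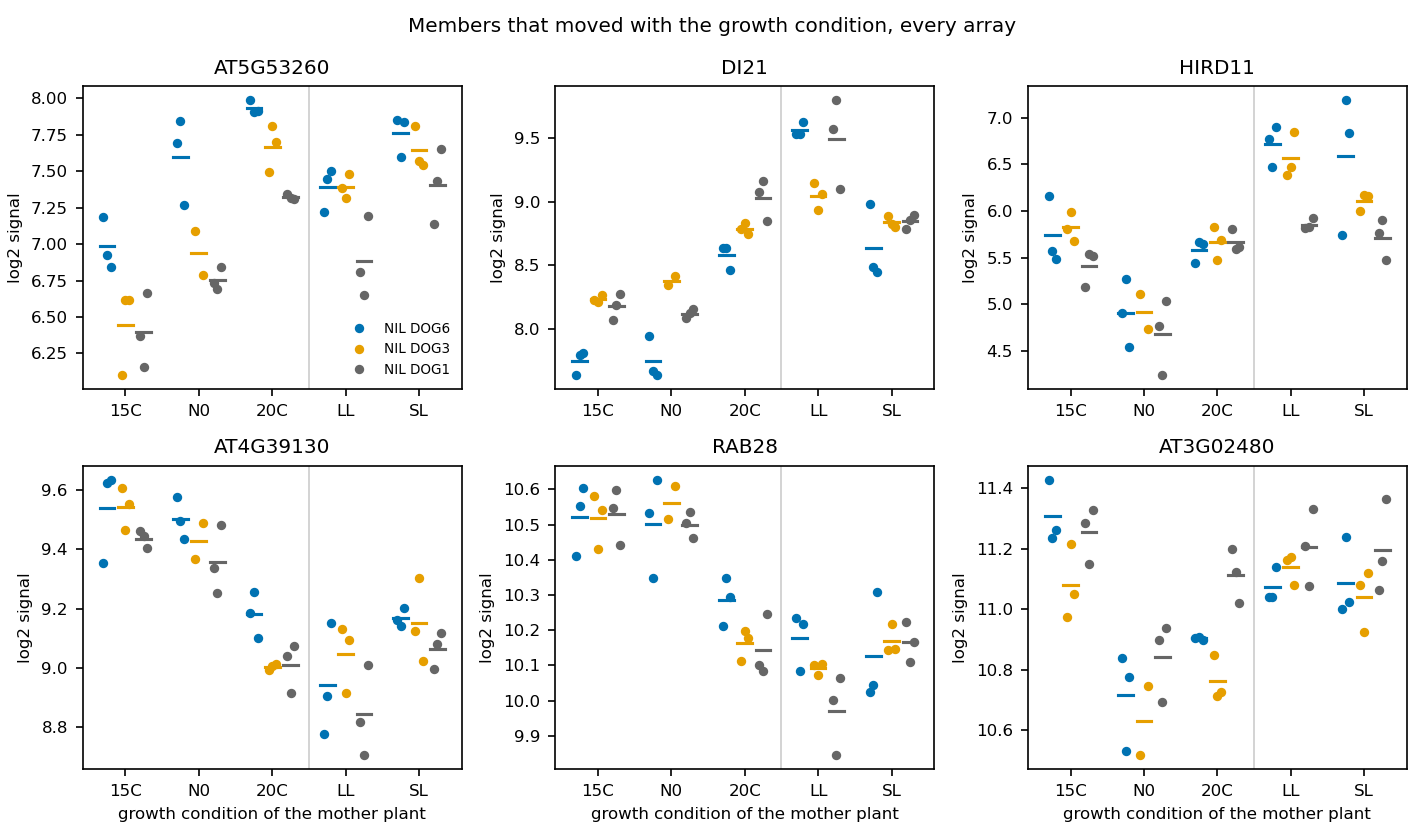
Log2 signal (y axis) of 6 LEA genes on every array, by growth condition of the mother plant (x axis) and line (colour), with a bar at each group mean of 3 arrays (2 for NIL DOG3 under N0). The vertical line parts the conditions compared with 20C from the pair LL and SL. AT5G53260 and DI21 lie lowest at 15C or N0, AT4G39130 and RAB28 lie highest there, HIRD11 is lowest under N0, and AT3G02480 lies higher at 15C than under N0.

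Markers of other seed parts and of pollen also differed at 15C and under N0. Of the 9 embryo storage genes 3 were lower at 15C and the same number under N0, with medians of -0.04 and -0.10. SESA1, a 2S albumin gene, had -0.39 ± 0.07, adjusted p = 2.43e-05 at 15C and -0.58 ± 0.07, adjusted p = 2.08e-07 under N0, and the other storage genes called were SESA2 and SESA4. The summed linear signal of the 9 was 30307 to 36380 (median 34226) at 15C, 29108 to 33741 (median 31823) under N0 and 32984 to 38706 (median 34887) at 20C. Of 5 leaf photosynthesis genes 1 was lower at 15C (median 0.01) and 2 under N0 (median -0.16), and of 5 seed coat genes TT10 was higher at 15C (0.84 ± 0.09, adjusted p = 1.29e-08; list median 0.17) and none was called under N0 (median 0.22). In each of these 2 lists of 5, only 1 gene had a mean above the median of all probe sets at 15C, N0 or 20C. Of 19 pollen genes 2 were lower at 15C, with a median of -0.54, and 0 were called under N0, with a median of 0.07. The summed pollen signal was 586 to 1149 (median 716) at 15C, 757 to 2072 (median 1246) under N0 and 743 to 1874 (median 1173) at 20C. With the pollen index in the fit SAG21 lost its call at 15C, and the other called members followed at 15C or under N0 kept theirs. AT2G18340 and AT3G22490, also called at 15C, were not followed there. The part of the other markers in the LEA differences was not tested.

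Under low nitrate 3 LEA genes were higher and 6 lower than at 20C. The background was 5.86% called higher and 6.07% called lower, again not matched to the members in signal. Named falls were HIRD11, DI21, AT4G38410, AT5G53260, AT3G02480 and M17, and the rises were AT4G39130, RAB28 and AT3G22490. N0 and 15C were set against the same 20C arrays, so a shared direction is not independent evidence. The N0 group had 8 arrays.

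Among the dehydrins 1 rose and 2 fell. HIRD11 had signals of 4.24 to 5.27 (median 4.84) under N0 and 5.45 to 5.83 (median 5.65) at 20C. All N0 arrays lay below all 20C arrays, and the difference of -0.81 ± 0.14 (adjusted p = 0.000101) made HIRD11 1.75-fold lower. By line, NIL DOG6 had 4.91, 5.27 and 4.54 under N0 and 5.45, 5.67 and 5.65 at 20C, NIL DOG3 had 5.11 and 4.73 under N0 and 5.83, 5.48 and 5.69 at 20C, and NIL DOG1 had 4.76, 4.24 and 5.04 under N0 and 5.81, 5.59 and 5.62 at 20C. AT4G38410 had signals of 2.72 to 3.21 (median 3.00) under N0 and 3.02 to 4.01 (median 3.57) at 20C (-0.56 ± 0.11, adjusted p = 0.000538). AT4G39130 had signals of 9.25 to 9.58 (median 9.46) under N0 and 8.92 to 9.26 (median 9.04) at 20C, and rose by 0.36 ± 0.06 (adjusted p = 1.83e-05).

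Of the LEA_4 genes 1 fell and 15 were not called. AT3G02480 had signals of 10.52 to 10.94 (median 10.76) under N0 and 10.71 to 11.20 (median 10.91) at 20C (-0.20 ± 0.06, adjusted p = 0.0229). The groups overlapped, and the call was lost in 5 of 17 fits without 1 array, with an adjusted p of up to 0.132. These arrays were replicate 2 of each line under N0 and replicate 1 of NIL DOG3 and of NIL DOG1 at 20C. It was also lost with only the compared arrays in the fit (adjusted p = 0.0688), without the 20C arrays of replicate number 1 or 2, and without the N0 arrays of number 2 (-0.10, adjusted p = 0.425). AT4G13230 had the largest LEA_4 difference (-0.22 ± 0.10, adjusted p = 0.141) and was called only when replicate 2 of NIL DOG3 at 20C, or all 20C arrays of that number, were left out (-0.29, adjusted p = 0.0354 without the single array). EM6 (-0.07 ± 0.08) and LEA4-5 (0.05 ± 0.04), which protects enzymes during drying in the test tube, were not called.

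The SMP genes again held 2 rises and 1 fall. AT5G53260 had signals of 6.69 to 7.84 (median 6.97) under N0 and 7.31 to 7.99 (median 7.70) at 20C (-0.54 ± 0.09, adjusted p = 7.83e-05). Of the N0 arrays, 2 of NIL DOG6 reached into the 20C range, and those of NIL DOG3 and NIL DOG1 did not. RAB28 had signals of 10.35 to 10.63 (median 10.52) under N0 and 10.08 to 10.35 (median 10.20) at 20C (0.32 ± 0.05, adjusted p = 1.3e-05). AT3G22490 rose by 0.18 ± 0.04 (adjusted p = 0.00267), and this call was lost without the N0 arrays of replicate number 3 (adjusted p = 0.0702). Among the other subfamilies only DI21 and M17 were called. DI21 had signals of 7.63 to 8.41 (median 8.10) under N0 and 8.46 to 9.16 (median 8.79) at 20C, without overlap (-0.72 ± 0.08, adjusted p = 1.1e-08). HIRD11 and DI21 made 2 members wholly lower under N0, against 1.11% of all probe sets, and 0 were wholly higher (1.15%). M17 differed by -0.13 ± 0.04 (adjusted p = 0.0229). As the brightest probe set on every array, M17 is set to the same value by a further quantile normalization, which gives a difference of 0, and its call was also lost without replicate 1 of NIL DOG3 at 20C or replicate 3 of NIL DOG3 under N0 (adjusted p up to 0.0817), with only the compared arrays in the fit (adjusted p = 0.126), and without all arrays of replicate number 1 or 3 at 20C or 2 or 3 under N0 (adjusted p up to 0.167).

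Within lines N0 called 2 members in NIL DOG6 (4.57%), 3 in NIL DOG3 (2.96%) and 7 in NIL DOG1 (2.75%). AT4G39130 was called in each line, narrowly (limma, adjusted p = 0.0453 in NIL DOG6, 0.0182 in NIL DOG3 and 0.0398 in NIL DOG1). With only the compared arrays in the fit 0 members were called higher in any line, so AT4G39130 lost its call in each. After median centring it lost its call in NIL DOG6. With 1 array of a line left out the count was 1 in all 6 fits of NIL DOG6, 0 to 3 in NIL DOG3 (0 without replicate 3 under N0, 2 or 3 otherwise) and 2 to 5 in NIL DOG1 (2 without replicate 1 or 2 at 20C, 3 or 4 without any N0 array). DI21 had -0.83 ± 0.13, adjusted p = 5.37e-05 in NIL DOG6, -0.41 ± 0.14, adjusted p = 0.126 in NIL DOG3 and -0.91 ± 0.13, adjusted p = 1.72e-05 in NIL DOG1. The test of a difference between lines passed for no member, so these counts do not order the lines.

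Setting 15C directly against N0, where the 20C arrays cancel, asked where the responses to temperature and nitrate differed. It called 4 members higher at 15C (6.66% of all probe sets) and 2 lower (6.27%). HIRD11 was higher at 15C, with signals of 5.18 to 6.17 (median 5.57) at 15C and 4.24 to 5.27 (median 4.84) under N0 (0.82 ± 0.14, adjusted p = 9.11e-05). AT3G02480 had 10.97 to 11.43 (median 11.24) at 15C and 10.52 to 10.94 (median 10.76) under N0 (0.48 ± 0.06, adjusted p = 3.76e-07). M17 had 12.81 to 12.87 (median 12.84) at 15C and 12.64 to 12.78 (median 12.69) under N0 (0.14 ± 0.04, adjusted p = 0.0154). AT3G02480 and M17 were wholly higher on the 15C arrays, against 0.884% of all probe sets. The M17 call was lost without replicate 3 of NIL DOG3 under N0 (adjusted p = 0.0568) and without all arrays of replicate number 2 or 3 at 15C or under N0 (adjusted p up to 0.121). It was also lost after median centring (0.11, adjusted p = 0.117), with only the compared arrays in the fit (adjusted p = 0.0753) and after the further quantile normalization, which sets the difference to 0. AT5G53260 was lower at 15C, with 6.10 to 7.19 (median 6.62) at 15C and 6.69 to 7.84 (median 6.97) under N0 (-0.49 ± 0.09, adjusted p = 0.000355). ERD14 (0.43 ± 0.14, adjusted p = 0.0355) and AT2G44060 (-0.34 ± 0.10, adjusted p = 0.0237) passed less firmly. ERD14 lost the call in 10 of 17 fits without 1 array, with an adjusted p of up to 0.0856. Those arrays were replicates 1 and 2 of NIL DOG1 and of NIL DOG3 and replicate 2 of NIL DOG6 at 15C, and replicates 1 and 2 of NIL DOG1, 2 and 3 of NIL DOG3 and 2 of NIL DOG6 under N0. The ERD14 call was also lost without all arrays of replicate number 1 or 2 at 15C or of any number under N0 (adjusted p up to 0.206). AT2G44060 lost it without replicate 1 of NIL DOG3 or 3 of NIL DOG6 at 15C, or 2 of NIL DOG3 under N0 (adjusted p up to 0.189), with only the compared arrays in the fit (adjusted p = 0.055), and without all arrays of replicate number 1 or 3 at 15C or 1 or 2 under N0 (adjusted p up to 0.246).

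Under low light 1 LEA gene was higher and 5 lower than under standard light. The background was 2.73% called higher and 3.63% called lower, and 0 members were without overlap between the groups (0.0755% and 0.137% of all probe sets). These shares too were not matched to the members in signal. The 6 calls became 3 with only the compared arrays in the fit or without the SL arrays of replicate number 3, and 2 without the LL or the SL arrays of number 2. The rise was DI21. It had signals of 8.93 to 9.80 (median 9.53) on the 9 LL arrays and 8.45 to 8.98 (median 8.83) on the 9 SL arrays, a 1.51-fold difference (0.59 ± 0.07, adjusted p = 4.74e-06), and 1 SL array reached into the LL range. AT5G53260 had signals of 6.65 to 7.50 (median 7.32) under LL and 7.14 to 7.85 (median 7.60) under SL (-0.38 ± 0.09, adjusted p = 0.00727), and lost the call without the LL arrays of replicate number 1 or of number 2 (adjusted p = 0.0513 for number 2).

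The other falls were 3 LEA_4 genes and 1 dehydrin. UNE15, named from a screen for unfertilized embryo sacs, had signals of 4.28 to 5.07 (median 4.65) under LL and 4.92 to 5.92 (median 5.35) under SL (-0.76 ± 0.20, adjusted p = 0.0184). Its residual SD of 0.452 was high beside the members' median of 0.118, and the call was lost without replicate 2 of NIL DOG3 under SL (-0.66, adjusted p = 0.0559), and without all arrays of replicate number 2 or 3 under LL or 1 or 2 under SL (adjusted p up to 0.131). AT4G36600 fell by 0.23 on the log2 scale (SE 0.06, adjusted p = 0.00918), and AT2G18340 fell by 0.19 (SE 0.05, adjusted p = 0.0111). Both calls were lost with only the compared arrays in the fit (adjusted p = 0.107 for AT4G36600 and 0.0611 for AT2G18340) and without the SL arrays of replicate number 2 or 3. That of AT2G18340 was lost also without the LL arrays of number 2 (adjusted p = 0.0527) and after median centring (adjusted p = 0.0502). AT4G39130 had -0.18 ± 0.06, adjusted p = 0.0399. Its call was lost in 11 of 18 fits without 1 array (adjusted p up to 0.115), namely replicates 1 and 2 of NIL DOG6 and of NIL DOG1 and 2 of NIL DOG3 under LL, and every replicate of NIL DOG6, 2 of NIL DOG3 and 2 and 3 of NIL DOG1 under SL. In all, the AT4G39130 call was lost in 20 of 32 alternatives. ERD10 had -0.49 ± 0.16, adjusted p = 0.0683, and was called without replicate 3 of NIL DOG1 under LL, or replicate 1 of NIL DOG3 or 2 of NIL DOG6 under SL (adjusted p as low as 0.017), and among probe sets above the median signal (adjusted p = 0.0386). LEA14, a folded LEA_2 protein (-0.12 ± 0.05), EM6 (-0.06 ± 0.08), LEA4-1 (-0.04 ± 0.05), AT2G23110 (-0.05 ± 0.07) and M17 (0.04 ± 0.04) were not called.

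Markers of pollen moved with the light comparison. Of 19 pollen genes 15 were lower under LL, with a median difference of -1.47. The summed linear signal of the 19 genes was 357 to 799 (median 616) on LL arrays and 690 to 5398 (median 1292) on SL arrays. It was 690 to 2338 on the SL arrays other than replicate number 2. Of the 19 genes, 11 under LL and 16 under SL had a mean above the median of all probe sets. Array signals have no true zero, so no marker is at 0. With a pollen index per array added to the fit (chosen after the data were seen), DI21 had 0.57 (adjusted p = 0.00277) and UNE15 had -0.29 ± 0.25 (adjusted p = 0.700). The other 4 had differences in that fit of like size as without the index but no call, with -0.40, adjusted p = 0.107 for AT5G53260, -0.23, adjusted p = 0.156 for AT4G36600, -0.18, adjusted p = 0.17 for AT2G18340 and -0.20, adjusted p = 0.208 for AT4G39130. Without the SL arrays of replicate number 2, DI21 (0.57, adjusted p = 0.000249) and AT5G53260 (-0.42, adjusted p = 0.0219) were called. The others were not, with -0.64, adjusted p = 0.131 for UNE15, -0.23, adjusted p = 0.053 for AT4G36600, -0.19, adjusted p = 0.0631 for AT2G18340 and -0.16, adjusted p = 0.186 for AT4G39130. The median LL difference was -0.01 for the 9 embryo storage genes, -0.03 for 5 leaf photosynthesis genes and -0.06 for 5 seed coat genes, of which 1 (TT10) was higher. Under LL and under SL, 2 of the leaf genes and 1 of the seed coat genes had a mean above the median of all probe sets.

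Within lines LL called 5 members in NIL DOG6 (2.5% of all probe sets), 0 in NIL DOG3 (limma, 0.0144%, with 0 members at an unadjusted p under 0.05) and 1 in NIL DOG1 (0.579%). DI21 had 9.53, 9.53 and 9.63 under LL and 8.98, 8.49 and 8.45 under SL in NIL DOG6 (0.92 ± 0.13, adjusted p = 6.68e-05). In NIL DOG3 it had 9.15, 8.93 and 9.06 under LL and 8.89, 8.83 and 8.80 under SL (0.21 ± 0.13, adjusted p = 0.727), and in NIL DOG1 9.57, 9.80 and 9.10 under LL and 8.79, 8.86 and 8.90 under SL (0.64 ± 0.13, adjusted p = 0.0101). LL was the higher condition in each line, without overlap. ERD10, AT4G38410, AT2G18340 and AT4G36600 were called in NIL DOG6, with -1.10 ± 0.29, adjusted p = 0.0306 for ERD10 and 0.74 ± 0.19, adjusted p = 0.026 for AT4G38410. With 1 array left out the count in NIL DOG6 was 1 to 4 (1 without replicate 1 under LL, 2 without replicate 2 or 3 under SL, 3 without replicate 3 under LL or 1 under SL and 4 without replicate 2 under LL), and it was 0 with only the compared arrays in the fit. In NIL DOG1 it was 0 without replicate 1 or 2 under LL or 1 under SL and 2 without replicate 3 under LL, and also 0 with only the compared arrays.

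**Figure D3:**
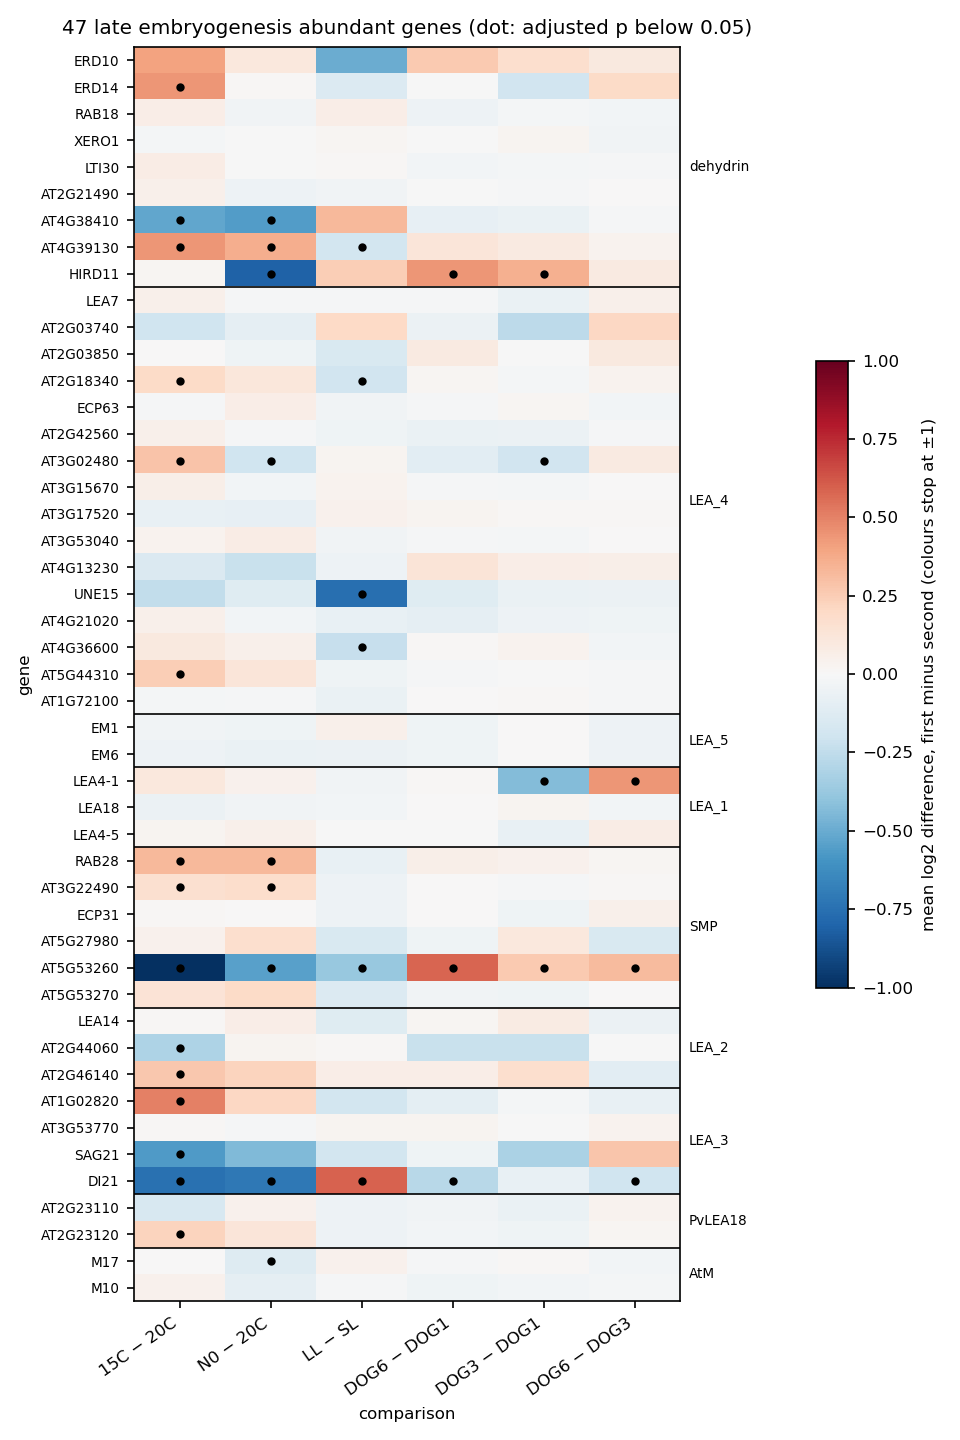
Mean log2 difference, first named group minus second, of the 47 LEA genes (rows, grouped by subfamily) in 6 comparisons (columns), with a dot where the adjusted p was below 0.05. Colours stop at 1 and -1. The rows of AT5G53260, DI21 and AT4G39130 carry a dot in all 3 condition columns, and the LEA_5 rows carry none.

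The called members of all 3 condition comparisons were AT5G53260, DI21 and AT4G39130, 3 of 47, against 1.67% of all probe sets. As for 15C, this share was not matched to the members in signal. For AT4G39130 the LL call was lost in 20 of 32 alternatives, and for AT5G53260 in 3 of 32. Averaged over the lines, the calls of DI21 held in every alternative, and all 3 genes kept their 15C and N0 calls there. Calls within single lines were less firm. The directions of the 3 genes differed from one another. AT5G53260 was lower at 15C, under N0 and under LL. DI21 was lower at 15C and under N0 and higher under LL. AT4G39130 was higher at 15C and under N0 and lower under LL.

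No member passed the F test of whether its response differed between the 3 lines. The tests called 0 of 47 members for 15C (limma, 0.0395% of all probe sets called), 0 for N0 (0%) and 0 for LL (0.00359%), and at an unadjusted p under 0.05 there were 1, 2 and 5 members, against 5.01%, 5.66% and 6.67% of all probe sets. For 15C the members with the smallest p were AT4G13230 (adjusted p = 0.906) and AT3G02480 (adjusted p = 0.9997). For N0 the smallest were those of AT4G13230 (adjusted p = 0.509) and DI21 (adjusted p = 0.856). For LL they were those of DI21 (adjusted p = 0.513) and XERO1 (adjusted p = 0.702).

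Between lines, averaged over the 5 conditions, few LEA genes differed. NIL DOG6 against NIL DOG1 had 2 members higher (4.02% of all probe sets) and 1 lower (4.23%). NIL DOG3 against NIL DOG1 had 2 higher (6.07%) and 2 lower (5.01%). NIL DOG6 against NIL DOG3 had 2 higher (4.28%) and 1 lower (5.34%). AT5G53260 was called in all 3 pairs. Its signals were 6.84 to 7.99 (median 7.60) on the 15 arrays of NIL DOG6, 6.10 to 7.81 (median 7.43) on the 14 of NIL DOG3 and 6.16 to 7.65 (median 6.84) on the 15 of NIL DOG1. NIL DOG6 stood above NIL DOG1 (0.58 ± 0.07, adjusted p = 9.9e-08) and above NIL DOG3 (0.32 ± 0.07, adjusted p = 0.00229). NIL DOG3 stood above NIL DOG1 (0.26 ± 0.07, adjusted p = 0.0113), a call lost without all arrays of replicate number 2 at 15C or under N0, or of number 1 under SL (adjusted p up to 0.0603).

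LEA4-1, a bright LEA_1 gene on chromosome 1, set NIL DOG3 apart. NIL DOG3 had signals of 11.10 to 11.57 (median 11.35), against 11.68 to 11.94 (median 11.82) in NIL DOG6 and 11.67 to 11.91 (median 11.80) in NIL DOG1. No NIL DOG3 array reached the range of either other line. The difference was -0.43 ± 0.04, adjusted p = 1.3e-09 for NIL DOG3 against NIL DOG1 and 0.44 ± 0.04, adjusted p = 8.58e-10 for NIL DOG6 against NIL DOG3. LEA4-1 was 1 of 47 members without overlap in each of these pairs, against 0.428% of all probe sets lower in NIL DOG3 than in NIL DOG1 and 0.37% higher in NIL DOG6 than in NIL DOG3. Its relatives LEA18 (0.03 ± 0.04) and LEA4-5 (-0.07 ± 0.03) were not called between NIL DOG3 and NIL DOG1. Of the 20 measured genes nearest to LEA4-1 on the chromosome, 8 were called between NIL DOG3 and NIL DOG1, 4 higher and 4 lower, against 11.1% of all probe sets, and 8 between NIL DOG6 and NIL DOG3 (9.61%). Whether a base difference under the probes carries the LEA4-1 difference was not tested.

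**Figure D4:**
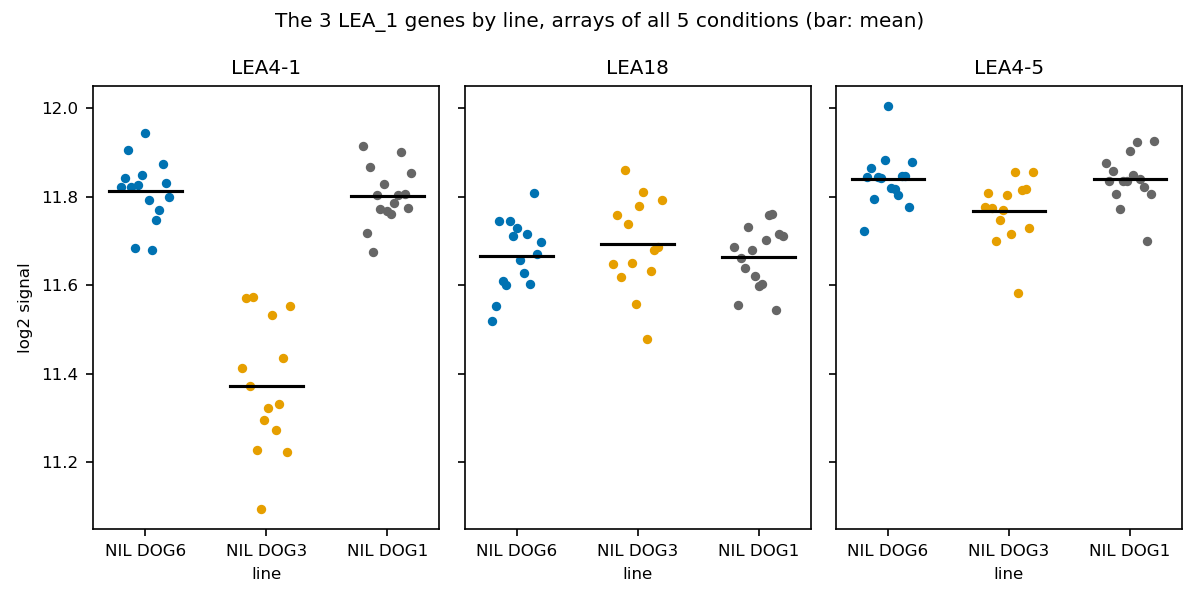
Log2 signal (y axis) of the 3 LEA_1 genes on the arrays of each line (x axis), all 5 conditions together, with a bar at the mean. The NIL DOG3 arrays of LEA4-1 lie below all arrays of NIL DOG6 and NIL DOG1, while the lines overlap for LEA18 and LEA4-5.

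HIRD11 was lowest in NIL DOG1 on average over the 5 conditions, but not in each of them. Its signals were 4.54 to 7.19 (median 5.67) in NIL DOG6, 4.73 to 6.85 (median 5.91) in NIL DOG3 and 4.24 to 5.92 (median 5.59) in NIL DOG1. NIL DOG6 differed from NIL DOG1 by 0.44 ± 0.11, adjusted p = 0.00438. NIL DOG3 differed from NIL DOG1 by 0.35 ± 0.11, adjusted p = 0.0293, and this call was lost in 5 of 29 fits without 1 array (adjusted p up to 0.0939). Those arrays were replicate 2 under N0 and 3 under LL of NIL DOG3, and replicate 1 at 15C, 2 under N0 and 3 under SL of NIL DOG1. The ranges, which span 5 conditions, overlapped. The call was also lost without all arrays of replicate number 1 or 2 at 15C, 1 or 3 at 20C, 2 under N0, 3 under LL or 3 under SL (adjusted p up to 0.145). Group means for NIL DOG6, NIL DOG3 and NIL DOG1, in that order, were 5.74, 5.83 and 5.42 at 15C, 4.91, 4.92 and 4.68 under N0, 5.59, 5.67 and 5.67 at 20C, 6.72, 6.57 and 5.86 under LL and 6.59, 6.11 and 5.71 under SL. NIL DOG1 thus had the lowest mean in 4 of the 5 conditions and the highest at 20C, where the means lay within 0.09 of each other, and the gaps were widest under LL and SL. Under SL the NIL DOG6 arrays had 5.75, 7.19 and 6.84 and those of NIL DOG1 5.77, 5.90 and 5.47, with overlap. DI21 was lower in NIL DOG6 than in NIL DOG1 (-0.28 ± 0.06, adjusted p = 0.000607) and than in NIL DOG3 (-0.20 ± 0.06, adjusted p = 0.0187). The second of these calls was lost in 7 of 51 alternatives, among them median centring (-0.17, adjusted p = 0.065) and the arrays of number 3 under N0 left out (adjusted p = 0.0789), and the others left out number 1 at 15C or under LL, 2 under N0 or SL or 3 under SL. AT3G02480 was lower in NIL DOG3 than in NIL DOG1 (-0.19 ± 0.05, adjusted p = 0.00282). Embryo storage genes were called lower for 4 of 9 in NIL DOG6 and for 4 of 9 in NIL DOG3, each against NIL DOG1, and their part in the LEA differences was not tested.

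The largest differences that were not called were small beside their errors or borderline. AT2G44060, a LEA_2 gene, came nearest to a call between lines, with -0.23 ± 0.08, adjusted p = 0.0666 for NIL DOG6 against NIL DOG1 and -0.22 ± 0.08, adjusted p = 0.0702 for NIL DOG3 against NIL DOG1. It was called in the first of these pairs without replicate 2 at 15C, 2 at 20C or 3 under LL of NIL DOG6 or replicate 1 at 20C of NIL DOG1 (adjusted p as low as 0.0366), and in the second without replicate 2 at 15C, 2 at 20C, 2 under N0 or 3 under LL of NIL DOG3 or that same NIL DOG1 array (as low as 0.0201). In all, it gained a call in 6 of 52 alternatives for the first pair and 11 of 51 alternatives for the second. Between NIL DOG6 and NIL DOG3 the LEA_2 gene with the largest difference was AT2G46140 (-0.10 ± 0.06), and the dehydrin was ERD14 (0.19 ± 0.11). SAG21 had -0.32 ± 0.15 for NIL DOG3 against NIL DOG1 and 0.28 ± 0.15 for NIL DOG6 against NIL DOG3. The dim LEA_4 gene AT2G03740 had -0.26 ± 0.12 and 0.20 ± 0.12 in those pairs, and AT4G13230 had 0.13 ± 0.07 for NIL DOG6 against NIL DOG1. No LEA_5, PvLEA18 or AtM gene differed by more than 0.07 in absolute size between any pair of lines. Under N0, AT2G46140 (0.22 ± 0.08, adjusted p = 0.0826) and AT2G23120 (0.12 ± 0.04, adjusted p = 0.0683) led LEA_2 and PvLEA18. Among probe sets above the median signal both were called (adjusted p = 0.0404 and 0.0226). For 15C against N0, AT1G02820 had 0.30 ± 0.14, adjusted p = 0.189, AT2G23110 had -0.20 ± 0.07, adjusted p = 0.0693, LEA4-1 had 0.06 ± 0.06 and EM6 had 0.02 ± 0.08. AT2G23110 was called among probe sets above the median signal (adjusted p = 0.0336).

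LEA genes that lie next to each other did not always move together. The table's order of loci gave 5 neighbouring pairs, and the difference of the paired genes' responses was tested by an exact two-sided permutation of arrays within lines, 15 tests in all, a test chosen after the data were seen. Each gap that passed held a member already called in that comparison (AT5G53260, AT2G23120 or AT3G22490), so the tests largely restate those calls. Neighbouring genes outside the list were not tested. At 15C, AT5G53260 differed by -1.03 and its SMP neighbour AT5G53270 by 0.14, and AT5G53260 lay wholly lower while AT5G53270 overlapped. The gap of -1.17 had an exact p = 0.00025, the smallest the permutations can give (adjusted p = 0.00188 over the 15). AT5G53270 was the dimmer gene, with a mean signal of 4.99 against 7.24 for AT5G53260. The part of signal level in the gaps was not tested. Under N0 the gap between these SMP genes was -0.74 (exact p = 0.001, adjusted p = 0.005), and under LL it was -0.24 (exact p = 0.118, adjusted p = 0.252). The PvLEA18 neighbours AT2G23110 and AT2G23120 differed by -0.16 and 0.22 at 15C, a gap of -0.38 (exact p = 0.00025, adjusted p = 0.00188). AT3G22490 and its SMP neighbour ECP31 differed by 0.16 and 0.01 at 15C, a gap of 0.15 (exact p = 0.002, adjusted p = 0.0075), and by 0.18 and 0.01 under N0, a gap of 0.17 (exact p = 0.0045, adjusted p = 0.0135). The gaps between the dehydrins LTI30 and XERO1 and between the AtM genes M17 and M10 did not pass, with the lowest adjusted p at 0.127 for LTI30 and XERO1 at 15C, a gap of 0.09.

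**Figure D5:**
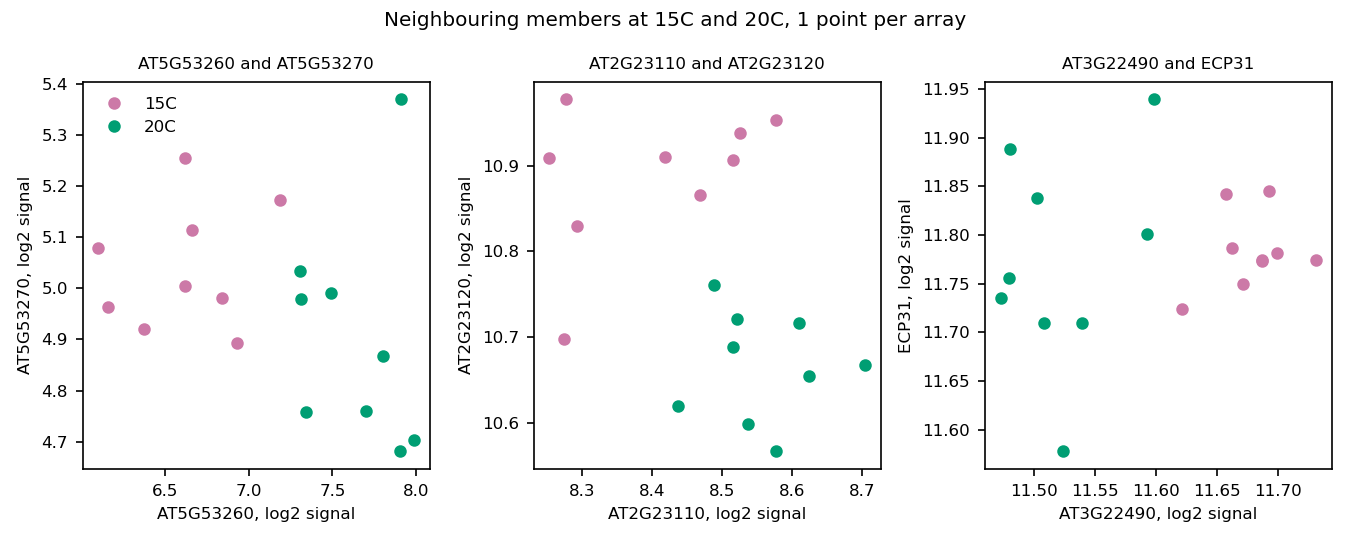
Log2 signals of 3 pairs of neighbouring LEA genes on the 9 arrays at 15C and the 9 at 20C, 1 gene on each axis. The 15C arrays lie left of the 20C arrays for AT5G53260, above most of them for AT2G23120 and right of them for AT3G22490, while AT5G53270, AT2G23110 and ECP31 overlap.

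Regulators of the maturation programme moved as well. Of 19 listed transcription factors and dormancy genes, 7 were higher and 2 lower at 15C, 6 higher and 2 lower under N0, and 2 higher and 2 lower under LL. The background shares are those of each comparison given above. DOG1, a central gene of dormancy, differed by 2.24 ± 0.10, adjusted p = 1.03e-17 at 15C and 0.76 ± 0.10, adjusted p = 1.54e-06 under N0. ABI4, an AP2 factor of abscisic acid signalling, differed by -1.05 ± 0.11, adjusted p = 1.54e-09 at 15C, -0.75 ± 0.11, adjusted p = 4.96e-06 under N0 and 0.59 ± 0.11, adjusted p = 0.000588 under LL. BZIP67, a bZIP factor of seed filling, rose at 15C (0.63 ± 0.12, adjusted p = 0.000112), as did BZIP53, a partner of other bZIP factors (0.58 ± 0.07, adjusted p = 1.99e-08). Under N0, ABF4, a bZIP factor of abscisic acid responses, rose (0.35 ± 0.07, adjusted p = 0.000588), and so did FUS3 (0.30 ± 0.08, adjusted p = 0.00651). EEL, a bZIP factor that acts on EM1, rose under LL (0.24 ± 0.05, adjusted p = 0.0031), and HSFA9, a seed heat shock factor, fell (-0.26 ± 0.05, adjusted p = 0.00205). EM1 itself was not called in any comparison. Of 6 cold and drought regulators, CBF4, a drought-responsive factor, rose at 15C (0.80 ± 0.14, adjusted p = 2.58e-05) and under N0 (1.29 ± 0.14, adjusted p = 2.95e-08), ICE1, a regulator of CBF genes, rose at 15C (0.22 ± 0.07, adjusted p = 0.0131), and DREB2A rose under N0 (0.17 ± 0.05, adjusted p = 0.0328). Between lines, FUS3 was higher in NIL DOG6 than in NIL DOG1 (0.93 ± 0.06, adjusted p = 1.08e-14), as was ABI4 (0.37 ± 0.08, adjusted p = 0.00156). BZIP67 was lower (-0.34 ± 0.09, adjusted p = 0.0165), and so was DOG1 (-1.38 ± 0.08, adjusted p = 3.97e-16). NIL DOG1 is named for the DOG1 locus. Whether a base difference under the probes carries these line differences was not tested. Between NIL DOG6 and NIL DOG1, 3 of the 47 LEA genes were called, against 8.25% of all probe sets. A link between the regulator and LEA differences was not tested.

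Over the 15 group means, the most alike patterns paired genes within and across subfamilies. As a description over means that share arrays within groups, the SMP genes RAB28 and AT3G22490 had a Pearson r of 0.97, and RAB28 and the dehydrin AT4G39130 had 0.943. DI21 of LEA_3 was most like the dehydrin AT4G38410 (0.936). The LEA_4 genes AT3G02480 and AT3G15670 had 0.869. AT5G53260 had no close match, with SAG21 nearest at 0.485, and HIRD11 was nearest to AT4G38410 at 0.644.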

How the data were processed

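RNA of dry seed was measured on 44 arrays. The samples are labelled total RNA, while the extraction protocol also describes polysome RNA. The log2 values were deposited by the authors and made with RMA, a background correction, quantile normalization and probe summary, per the submitters' processing notes. For the array annotation and the genome build, nothing is given in the sources used here. Because RMA equalizes the distributions, a shift of total RNA between arrays is hidden.

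A model with 1 mean per group was fitted over the 15 groups with limma 3.58.1 (lmFit, eBayes) in R 4.3.3, with no filter on dim probe sets and no replicate block, 29 residual degrees of freedom and a median residual SD of 0.199. Tests were two-sided. Condition comparisons average the 3 within-line differences, and line comparisons the 5 within-condition ones. Precision is limited by the number of arrays. The fit was tested on simulated data, where changes of known size were added to the 15C arrays. For 15C against 20C it recovered 12% of log2 changes of 0.25, 80% of 0.5 and 100% of 1, with 50 probe sets each. These were drawn from all probe sets, not from the members. No probe set of a member was identical to another (0 of 47). Symbols came from a TAIR10.1 table, which named 22 of the 47, and some follow common usage. The same table gave the order of loci.

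Members, gene lists and tests were chosen with earlier results of these data known. The text names every called member up to 12 in each comparison, further ones among those called, each subfamily's largest difference, the smallest F test p-values and up to 4 called regulators a list. Same-numbered arrays of a condition mostly did not deviate together. Of 43 pairs across lines 12 had a correlation over 0.1 (range -0.14 to 0.40), so the numbers were not taken to pair the samples, but the 3 pairs of SL number 2 all exceeded 0.1 (0.179 to 0.398). Pairs also reached 0.200 for SL number 3, 0.213 for LL number 1, 0.271 for LL number 3 and 0.202 for 15C number 1. The random replicate block used 1 consensus correlation (0.0266) over all conditions. Its unchanged LL count thus does not show that the light arrays are independent. The labels' protocols name a randomized block design but do not tie the numbers to blocks. Alternatives were the dim filter, only the groups compared, replicate blocks, another variance prior, median centring, further quantile normalization, left-out arrays and a pollen covariate.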

Additional observations from a re-analysis of the deposited data

Results flagged for a closer look

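The differences of 2 LEA_4 genes under low nitrate had opposite signs in NIL DOG6 and NIL DOG1, with every N0 array of a line on 1 side of its own 20C arrays. Of all probe sets 1.88% showed 2 lines wholly on opposite sides under N0. Within 1 line such a lack of overlap was common under N0, with 10% of all probe sets higher in NIL DOG6 and 10.3% lower in NIL DOG1. AT4G13230, a dim gene, differed by 0.29 in NIL DOG6, where the N0 arrays had 3.11, 3.24 and 3.26 and the 20C arrays 3.04, 2.70 and 3.00. In NIL DOG1 it differed by -0.60, with 2.77, 2.64 and 2.75 under N0 and 3.35, 3.40 and 3.23 at 20C. In NIL DOG3 it differed by -0.36. The F test over the 3 lines did not pass (limma, adjusted p = 0.509 over all probe sets). Within lines AT4G13230 was called in NIL DOG1 (limma, adjusted p = 0.0286) and not in NIL DOG6 (adjusted p = 0.369). AT3G53040 differed by 0.18 in NIL DOG6, with 11.62, 11.71 and 11.64 under N0 and 11.51, 11.44 and 11.47 at 20C. In NIL DOG1 it differed by -0.10, with 11.48, 11.38 and 11.56 under N0 and 11.58, 11.57 and 11.58 at 20C. In NIL DOG3 it differed by 0.13. Its F test did not pass either (adjusted p = 0.892). AT3G53040 was called in neither line (limma, adjusted p = 0.259 in NIL DOG6 and 0.712 in NIL DOG1).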

How the results depend on the processing

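Of 81 differences of single members, 72 kept their direction under every alternative run and 46 kept direction and call. Fits with replicate number as a replicate block, fixed or random, gave 15 called members for 15C, 9 for N0 and 6 for LL, and moved no count of calls by over 1.5 times. Restricting tests to probe sets above the median signal gave 5 called for NIL DOG6 against NIL DOG1 and 5 for N0 in NIL DOG3. Fitting only the arrays of the groups compared, which leaves fewer arrays to estimate the spread, gave 3 called for LL, 3 and 2 for 15C in NIL DOG3 and NIL DOG6, 3, 0 and 0 for N0 in NIL DOG1, NIL DOG3 and NIL DOG6, and 0 for LL in NIL DOG1 and in NIL DOG6. Centring each array on its median gave 5 for 15C in NIL DOG3 and 1 for N0 in NIL DOG6, and the pollen covariate gave 1 for LL. The cause of these shifts was not tested. Uncalled differences near 0 turned sign. EM6 had -0.0109 for 15C against N0 and -0.0214 for NIL DOG3 against NIL DOG1 after centring, and -0.0253 for 15C against N0 after quantile normalization. M17 had 0.000669 for NIL DOG6 against NIL DOG3 after centring. With 1 array or 1 replicate number left out, called members ranged from 12 to 16 for 15C, 7 to 10 for N0, 2 to 8 for LL, 3 to 6 for 15C against N0, 3 to 4 for NIL DOG6 against NIL DOG1, 3 to 5 for NIL DOG3 against NIL DOG1 and 2 to 3 for NIL DOG6 against NIL DOG3. Within NIL DOG1, NIL DOG3 and NIL DOG6 they ranged from 5 to 7, 5 to 9 and 3 to 5 for 15C, 2 to 5, 0 to 3 and 1 to 1 for N0, and 0 to 2, 0 to 0 and 1 to 4 for LL. The lowest LL count, 2, came without the LL or the SL arrays of replicate number 2. In those fits EM6 ranged from -0.0988 to 0.0191 for 15C, -0.117 to 0.000844 for N0, -0.106 to 0.0021 for LL, -0.018 to 0.0656 for 15C against N0 and -0.0322 to 0.0389 for NIL DOG3 against NIL DOG1. LEA4-1 ranged from -0.00198 to 0.0248 for NIL DOG6 against NIL DOG1, M10 from -0.0451 to 0.00252 for NIL DOG3 against NIL DOG1 and AT2G23110 from -0.12 to 0.00781 for LL. Members below the median signal limit precision, since their residual SD had a median of 0.265, against 0.0997 for the bright ones.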
